A study of Homo sapiens with 44 samples.

Results

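Interleukin-17A (IL-17A) was given alone to Ccd18-Co cells, an established fibroblast line from human colon, and its effect on open chromatin was measured against unstimulated cells of the same line. The comparison took every library with one of those labels, 4 given IL-17A at 10 ng/ml and 4 left unstimulated, which makes 8 of the 44 ATAC-seq libraries of the series. ATAC-seq uses a transposase that cuts accessible DNA and tags it for sequencing, so a region with more reads was more accessible. The other 36 libraries came from cells given another cytokine, and 2 of those groups, IL-1β (0.1 ng/ml, 4 libraries) and TNF (10 ng/ml, 4 libraries), which also signal through NF-κB, served as references. Per the methods of the study, all cells were starved in serum-free medium and then kept with the cytokine, or without, for 24 h. All libraries came from 1 line and nothing says that replicates were separate cultures. The p-values below therefore rest on spread between libraries, which may be technical. In the peak tests that spread was pooled over all 44 libraries and drawn towards that of peaks of similar coverage. It is therefore not the spread of the 8 libraries alone.

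IL-17A is a cytokine of T cells and other lymphocytes at barrier surfaces. It binds a receptor of the chains IL17RA and IL17RC, which recruits the adaptor Act1 (encoded by TRAF3IP2) and the ubiquitin ligase TRAF6, and these activate NF-κB, MAP kinases and the C/EBP transcription factors CEBPB and CEBPD. In fibroblasts it is known for inducing chemokines that attract neutrophils, such as CXCL1, and for stabilising their mRNAs. It is also known to act weakly alone and strongly together with TNF or IL-1β.

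The 4 IL-17A libraries held 409 ± 83.1 Mb of coverage in peaks and the 4 unstimulated libraries 414 ± 81.6 Mb (mean ± SD, n = 4 each; exact permutation test, two-sided, p = 0.829), with totals from 323 to 524.4 Mb. Peaks without any coverage made up 8.68 ± 3.47% of peaks with IL-17A and 7.54 ± 3.05% without (exact permutation p = 0.543). Coverage in a peak is given per Mb of the library's coverage after correction for composition. All 10 fibroblast markers had a peak at their start site, summed to between 138 and 168 per Mb in each of the 8 libraries. Of 8 epithelial markers 3 had such a peak, and CDH1, KRT20, VIL1, CDX2 and MUC2 had none. Of 8 immune markers PTPRC, CD3E, LYZ, SPI1 and ITGB2 had none. The 3 epithelial peaks summed to at most 3.76 per Mb and the 3 immune peaks to at most 8.66 per Mb. Endothelial start sites summed to 5.18 to 5.97 per Mb with IL-17A and 4.7 to 7.89 per Mb without, and neural and glial start sites to 1.73 to 3.82 and 2.98 to 4.25 per Mb. In bulk samples fewer open cells and less accessibility per cell cannot be told apart.

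Of the 22 raised peaks called in every fit that left out 1 library, 7 (31.8%) held both an NF-κB and a C/EBP match. Both were also in 1.73% of all tested peaks. Shown first are 6 of these 7, to be read side by side (the other one is not printed). They were chosen for holding both matches and not for a larger change. Each stretch is hg38, plus strand, 5′ to 3′, and the capitals mark matches to the NF-κB consensus of 10 letters or to the C/EBP half-site pair TTGCNNAA, read on both strands. The last pair of lines is the distal CXCL1 peak, which held C/EBP matches and no NF-κB match.
SCARB1, chr12:124765080-124765252: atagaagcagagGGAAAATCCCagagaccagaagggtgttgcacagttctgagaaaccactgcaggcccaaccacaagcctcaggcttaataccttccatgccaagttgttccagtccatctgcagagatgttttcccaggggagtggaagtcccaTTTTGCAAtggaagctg
FEM1C, chr5:115450829-115450874: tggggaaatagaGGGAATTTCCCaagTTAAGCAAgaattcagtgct
FANK1-AS1, chr10:126134433-126134601: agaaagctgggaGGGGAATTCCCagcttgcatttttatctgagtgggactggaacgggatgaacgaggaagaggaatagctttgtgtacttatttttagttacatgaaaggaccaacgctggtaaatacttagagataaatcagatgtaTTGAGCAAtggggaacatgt
TTLL4, chr2:218733844-218733984: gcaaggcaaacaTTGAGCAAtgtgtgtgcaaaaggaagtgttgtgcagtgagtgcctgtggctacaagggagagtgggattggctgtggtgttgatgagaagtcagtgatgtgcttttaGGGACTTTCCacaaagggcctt
NFE2L1, chr17:48055860-48055922: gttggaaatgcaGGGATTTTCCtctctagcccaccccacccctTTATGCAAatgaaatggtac
LINC00528, chr22:17781809-17781932: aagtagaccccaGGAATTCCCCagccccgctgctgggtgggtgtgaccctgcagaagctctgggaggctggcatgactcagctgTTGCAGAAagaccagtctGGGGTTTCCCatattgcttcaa
CXCL1, chr4:73872658-73872689: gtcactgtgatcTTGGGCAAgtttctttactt
CXCL1, chr4:73873055-73873082: gactgaggtttcTTGAGCAAtgttacca
In the FEM1C and FANK1-AS1 stretches 2 NF-κB matches overlap and form 1 run of capitals. In the SCARB1 stretch the NF-κB match covers bases 13 to 22 and the C/EBP match bases 157 to 164. The order was reversed in the TTLL4 stretch, with C/EBP at bases 13 to 20 and NF-κB at bases 120 to 129.

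IL-17A opened a small number of regions and closed fewer. Of 407176 tested peaks 162 were called, that is, had a limma adjusted p under 0.05 (0.0398% of tested peaks). Of these, 134 were raised (0.0329%) and 28 lowered (0.00688%). At an unadjusted p under 0.05 there were 26247 peaks (6.45%). Over all tested peaks the change had a median of -0.02 on the log2(coverage per Mb + 0.5) scale, on which all changes below are given, and raised peaks had a median change of 0.98 and lowered peaks of -1.01. All 4 IL-17A libraries lay beyond all 4 unstimulated libraries in 3.51% of tested peaks, in 114 of the 134 raised peaks and in 24 of the 28 lowered peaks. Since the called peaks were chosen by these same values, these counts describe them and are no test. The count depended on single libraries: it was 58 without IL-17A replicate 2, 64 without replicate 1, 73 without replicate 3 and 240 without replicate 4, and 88, 104 and 92 without unstimulated replicates 1, 2 and 3. With GC content corrected per library it was 90.

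**Figure D1:**
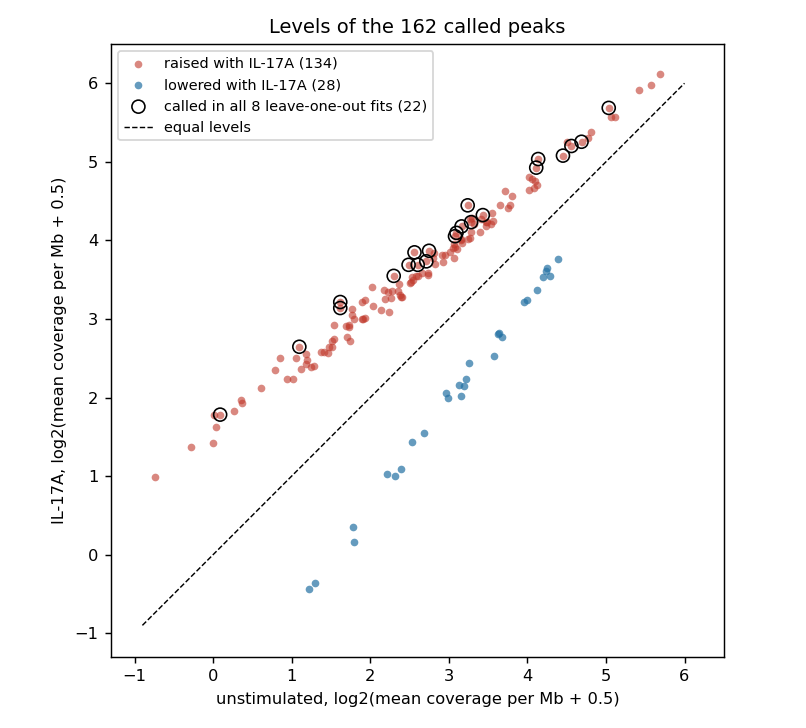
Mean level of each of the 162 called peaks in unstimulated cells (horizontal axis) and with IL-17A (vertical axis), both as log2(coverage per Mb + 0.5) over 4 libraries. The 134 raised peaks lie above the dashed line of equal levels and the 28 lowered peaks below it, and the 22 circled peaks, all raised, were called in each of the 8 fits that left out 1 library.

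Replicate 4 of IL-17A was the lowest of its group in 78 of the 134 raised peaks, and replicate 2 was the highest in 56. The mean log2 level over the raised peaks was 3.36 in replicate 4 and 3.62, 3.69 and 3.62 in the other IL-17A libraries, against 2.51 to 2.59 in the unstimulated libraries. Replicate 4 was the deepest IL-17A library (522.8 Mb) and replicate 2 the shallowest (323 Mb), and the part of depth in this order was not tested.

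Of the 162 called peaks 22 were called in all 8 fits that left out 1 library, and all 22 were raised. They include peaks given by the deposited table to SCARB1 (a receptor for high-density lipoprotein), CXCL1, FEM1C (a substrate adaptor of a ubiquitin ligase), GRK5 (a kinase of G-protein-coupled receptors), EGR1 (an immediate-early transcription factor), NFE2L1 (a transcription factor of proteasome genes), PSMB7 (a proteasome subunit), SLC39A14 (a zinc and iron transporter), PIK3R1 (the regulatory subunit of PI3-kinase) and the noncoding RNA NEAT1. A gene given to a peak by the table need not be the gene it acts on. Called peaks named below that are not among these 22 each lost the call in at least 1 fit that left out 1 library.

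The SCARB1 peak (chr12:124764752-124765252, hg38, intergenic) had the smallest adjusted p together with the distal CXCL1 peak. Its coverage was 17.5, 14.8, 19.8 and 15.0 per Mb in the unstimulated libraries and 29.8, 28.2, 33.4 and 28.4 per Mb in the IL-17A libraries. The groups did not overlap, and the IL-17A libraries lay close together. The change was 0.82 ± 0.13 (log2, ± SE, limma adjusted p = 7.08e-05).

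At the FEM1C peak (chr5:115450602-115451102, intergenic, 35584 bases from the nearest annotated start site) coverage was 4.85, 7.48, 4.05 and 5.26 per Mb in unstimulated cells and 13.2, 13.9, 14.7 and 13.8 per Mb with IL-17A. Every IL-17A library lay above every unstimulated one. FEM1C rose by 1.32 ± 0.21 (log2, adjusted p = 0.000193).

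The peak given to FANK1-AS1 (chr10:126134197-126134697) lies in an intron of ADAM12, which encodes a membrane-bound metalloprotease. It held 8.12, 9.18, 8.07 and 8.42 per Mb without and 17.4, 24.0, 16.7 and 12.3 per Mb with IL-17A, a change of 0.98 ± 0.16 (adjusted p = 0.000193). The unstimulated libraries lay close together here, whereas the IL-17A libraries spread, with replicate 2 at the top and replicate 4 at the bottom.

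TTLL4 encodes an enzyme that adds glutamate chains to tubulin, and the peak in its intron (chr2:218733669-218734169) held 0.716, 1.7, 1.3 and 2.84 per Mb without IL-17A. The IL-17A libraries held 5.64, 3.99, 6.13 and 7.27 per Mb, all above the highest unstimulated library. TTLL4 rose by 1.62 ± 0.27 (adjusted p = 0.000253). A peak in an intron of SBF2 (chr11:10285333-10285833) went from 2.57 ± 1.6 to 8.79 ± 1.85 per Mb (mean ± SD, n = 4), a change of 1.70 ± 0.28 (adjusted p = 0.000253), and a peak in an intron of BOD1L1 (chr4:13611234-13611734) from 2.57 ± 0.604 to 8.31 ± 1.9 per Mb (1.52 ± 0.25, adjusted p = 0.000253).

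Promoters were among these 22 peaks at GRK5, IBA57 (an iron-sulfur cluster assembly factor) and PIK3R1. The GRK5 promoter peak (chr10:119206715-119207215, 606 bases from the GRK5 start site) held 4.47, 6.18, 8.76 and 5.46 per Mb in unstimulated cells and 16.6, 15.7, 14.7 and 9.31 per Mb with IL-17A. The groups did not overlap, but IL-17A replicate 4 lay near the highest unstimulated library. GRK5 rose by 1.12 ± 0.18 (adjusted p = 0.000253). IBA57 rose by 0.63 ± 0.11 (adjusted p = 0.000763) and PIK3R1 by 0.57 ± 0.10 (adjusted p = 0.00189), and both lost the call when GC content was corrected per library (adjusted p = 0.079 and 0.2), at a GC content of 74.0% and 74.6%.

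NEAT1 (chr11:65430784-65431284, exon) went from 10.3 ± 1.71 to 19.5 ± 2.3 per Mb (0.89 ± 0.16, adjusted p = 0.00186) and PSMB7 (chr9:124392719-124393219, intron) from 7.95 ± 1.42 to 16.1 ± 1.71 per Mb (0.98 ± 0.16, adjusted p = 0.000253). NFE2L1 (chr17:48055584-48056084, intron) went from 4.42 ± 2.21 to 11.2 ± 4.08 per Mb (1.29 ± 0.22, adjusted p = 0.000612). The peak given to HOOK2 (chr19:12795703-12796203, in its intron) went from 8.06 ± 2.04 to 16.6 ± 3.84 per Mb (1.01 ± 0.17, adjusted p = 0.000421). LINC00528, C11orf96 and SLC39A14 rose by 0.95 ± 0.17, 1.20 ± 0.21 and 0.65 ± 0.12 (adjusted p = 0.000725, 0.000876 and 0.000997). TMEM253, a peak in an intron of ARHGEF40, rose by 1.74 ± 0.32 (adjusted p = 0.0019), from a level of 0.564 ± 0.363 per Mb, and ANKDD1A by 1.10 ± 0.21 (adjusted p = 0.0034).

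CXCL1, which encodes a chemokine that attracts neutrophils, was the locus of the IL-17 target list with the most called peaks, 3 within 2.94 kb. At the distal peak (chr4:73872582-73873082, 3439 bases from the CXCL1 start site) coverage was 9.28, 8.65, 8.83 and 9.04 per Mb in unstimulated cells and 22.6, 26.9, 19.1 and 16.7 per Mb with IL-17A. No pair of libraries overlapped, and the lowest IL-17A library was well above the tight unstimulated group. This peak rose by 1.19 ± 0.18 (adjusted p = 7.08e-05).

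The intronic CXCL1 peak (chr4:73870140-73870640) held 3.79, 3.16, 4.43 and 4.8 per Mb without and 8.41, 11.9, 8.84 and 6.98 per Mb with IL-17A (1.06 ± 0.22, adjusted p = 0.0124). The exonic peak (chr4:73870716-73871216, in an untranslated part of the gene) held 4.25, 6.04, 4.79 and 6.22 per Mb without and 9.67, 10.8, 12.3 and 10.4 per Mb with IL-17A (0.97 ± 0.21, adjusted p = 0.0276). Neither of these peaks overlapped between groups, but they were called in only 4 and 3 of the 8 fits that left out a library, and the exonic one lost the call with a pseudocount of 0.1 (adjusted p = 0.0745). The CXCL1 promoter peak itself (chr4:73869143-73869643) held 11.5, 11.8, 12.0 and 11.4 per Mb without and 14.4, 16.4, 15.5 and 20.1 per Mb with IL-17A. It was higher in every IL-17A library and did not pass the test (0.48 ± 0.15, adjusted p = 0.387).

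Across the 46 tested peaks given to CXCL1 the median change was 0.26, 37 lay above 0, and 9 were higher and 0 lower at an unadjusted p under 0.05. At CXCL8, which encodes another neutrophil chemokine, 0 of 44 peaks were called (3 higher and 2 lower at an unadjusted p under 0.05), with a median of 0.12. At CXCL5 and CXCL6, 0 of 8 and 0 of 9 peaks were called.

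NAMPT, the rate-limiting enzyme of NAD+ salvage, had 4 called peaks, of which 3 lay in the gene within 9.84 kb. All 3 started from low levels. The peak at chr7:106270401-106270901 held 0.533, 0.0, 0.179 and 0.592 per Mb without and 2.36, 2.74, 1.93 and 1.32 per Mb with IL-17A (1.68 ± 0.38, adjusted p = 0.0386). The next (chr7:106276509-106277009) held 0.123, 0.824, 0.449 and 0.623 per Mb without and 1.75, 4.61, 3.17 and 2.23 per Mb with IL-17A (1.76 ± 0.39, adjusted p = 0.03). The peak nearest to the NAMPT start site, 4989 bases away (chr7:106279744-106280244), held 1.6, 1.74, 0.659 and 0.87 per Mb without and 4.4, 5.06, 5.17 and 3.71 per Mb with IL-17A (1.61 ± 0.34, adjusted p = 0.0188). In each of these peaks the groups were apart, and each lost the call with a pseudocount of 0.1 (adjusted p = 0.113, 0.277 and 0.204), which gives more weight to the scatter of low values. Each also lost the call in several fits that left out 1 library, with adjusted p up to 0.299, 0.314 and 0.186. A further peak given to NAMPT, far upstream (chr7:106424832-106425332), went from 42.5 ± 3.57 to 60.0 ± 1.07 per Mb (0.49 ± 0.09, adjusted p = 0.00189).

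A stretch of 9.35 kb held 4 called peaks, 3 given to IGFBP4, which encodes a binding protein of insulin-like growth factors, and 1 given to TNS4, a tensin-family gene. The TNS4 peak (chr17:40472497-40472997) held 3.31, 3.37, 1.28 and 3.67 per Mb without and 6.43, 9.79, 9.16 and 7.72 per Mb with IL-17A (1.42 ± 0.25, adjusted p = 0.000763). The IGFBP4 peaks rose by 0.98 ± 0.19, 0.97 ± 0.20 and 0.88 ± 0.19 (adjusted p = 0.00311, 0.0128 and 0.0268). The 4 peaks are intergenic and all were apart between groups. The last of the IGFBP4 peaks lost the call with a pseudocount of 0.1 (adjusted p = 0.0592).

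The EGR1 pair (chr5:138470495-138470995 and chr5:138471060-138471560) lies outside annotated genes. The first held 33.7, 33.7, 32.0 and 29.7 per Mb without and 61.5, 59.6, 47.0 and 36.0 per Mb with IL-17A (0.62 ± 0.10, adjusted p = 0.000253). The second held 16.8, 17.6, 17.1 and 13.0 per Mb without and 28.0, 33.8, 27.9 and 18.8 per Mb with IL-17A (0.71 ± 0.15, adjusted p = 0.0102). In both, replicate 4 of IL-17A came closest to the unstimulated libraries. The second peak lost the call without IL-17A replicate 1, 2 or 3 (adjusted p = 0.0735, 0.256 and 0.0712). It was also lost without unstimulated replicate 4 (adjusted p = 0.12).

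CEBPD encodes a C/EBP transcription factor that acts downstream of the IL-17 receptor. Its exonic peak, 46 bases from the start site, held 10.8, 9.42, 7.57 and 8.98 per Mb without and 16.7, 15.1, 20.8 and 14.7 per Mb with IL-17A. The groups did not overlap, with a change of 0.84 ± 0.16 (adjusted p = 0.00639). The call was lost with GC content corrected (0.62, adjusted p = 0.22, at a GC content of 78.8%) and with robust variance moderation in limma (adjusted p = 0.278). It was also lost without IL-17A replicate 3 (adjusted p = 0.128) and without unstimulated replicate 3 (adjusted p = 0.091). A second peak given to CEBPD, in an intron of SPIDR, went from 3.55 ± 0.533 to 10.1 ± 2.33 per Mb (1.37 ± 0.27, adjusted p = 0.00647), and lost the call with a pseudocount of 0.1 (adjusted p = 0.109) and without IL-17A replicate 2 or unstimulated replicate 1 (adjusted p = 0.126 and 0.0569). Of 98 tested peaks given to CEBPD these were the 2 called.

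**Figure D2:**
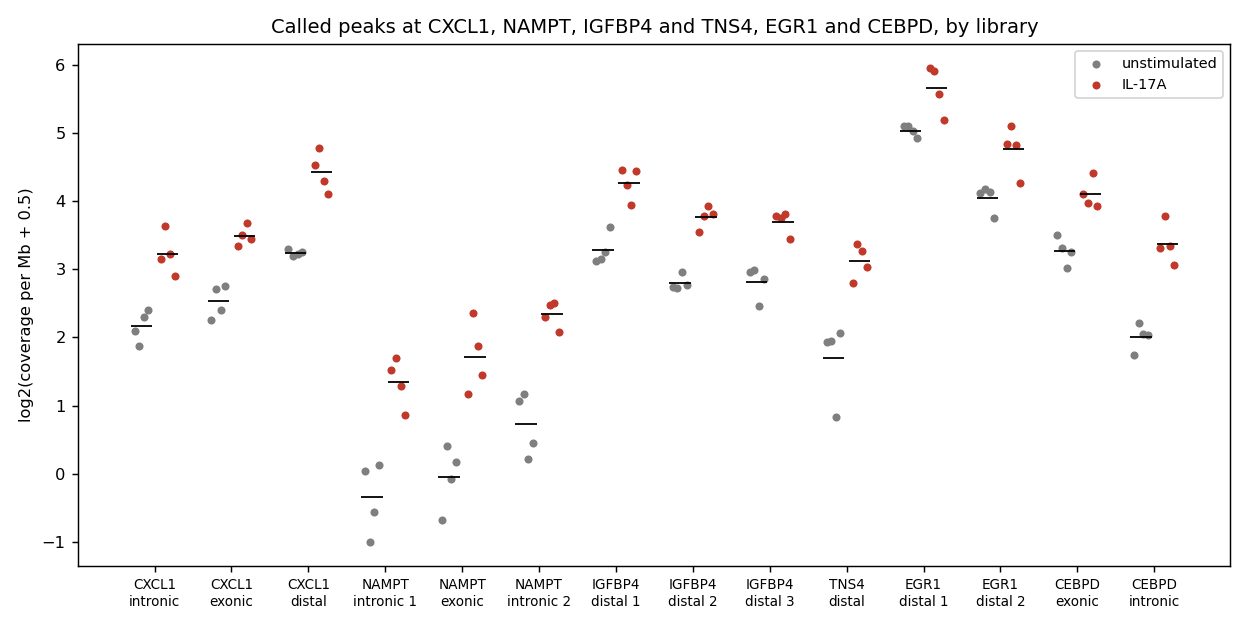
Level of 14 called peaks at 6 genes in each of the 8 libraries, as log2(coverage per Mb + 0.5), with unstimulated libraries in grey, IL-17A libraries in red and a bar at each group mean. In every peak shown the 4 IL-17A libraries lie above the 4 unstimulated libraries, and the NAMPT peaks within the gene start lowest.

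Other genes had 2 called peaks each. The GALK1 pair (chr17:75774009-75774509 and chr17:75774648-75775148) has H3-3B, which encodes histone H3.3, as the nearest start site, at 5520 and 4881 bases. The second of these went from 13.9, 17.2, 20.8 and 16.6 to 29.0, 41.2, 37.8 and 21.0 per Mb, so that IL-17A replicate 4 lay just above the highest unstimulated library (0.86 ± 0.14, adjusted p = 0.000253). The first rose by 1.02 ± 0.19 (adjusted p = 0.002). The pair given to SH3PXD2A-AS1, both in an intron of SH3PXD2A (a scaffold protein of invadopodia), rose by 1.65 ± 0.31 and 0.77 ± 0.14 (adjusted p = 0.0034 and 0.002).

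The largest raised changes among peaks with a mean of at least 1 per Mb came from low levels. Besides the NAMPT, TTLL4, SBF2 and TMEM253 peaks they were at STX8, DGKI, VEGFA, SH3BP1, TFCP2L1 and SH3PXD2A-AS1. In an intron of STX8, a SNARE protein gene, the peak (chr17:9389062-9389562) held 0.846, 0.0, 0.619 and 1.63 per Mb without and 3.93, 4.39, 2.82 and 2.52 per Mb with IL-17A (1.77 ± 0.32, adjusted p = 0.00103). It held 4 NF-κB matches, which can overlap. The peak given to VEGFA, a growth factor of blood vessels (chr6:43787583-43788083, intergenic), went from 0.795 ± 0.621 to 3.3 ± 0.391 per Mb (1.67 ± 0.33, adjusted p = 0.0072). DGKI, SH3BP1 and TFCP2L1 rose by 1.68 ± 0.35, 1.61 ± 0.36 and 1.58 ± 0.35 (adjusted p = 0.0128, 0.0295 and 0.0324). DGKI and TFCP2L1 lost the call with a pseudocount of 2 (adjusted p = 0.0556 and 0.114) and SH3BP1 with one of 0.1 (adjusted p = 0.234). DGKI, SH3BP1 and TFCP2L1 also lost it in several fits that left out 1 library (adjusted p up to 0.239, 0.186 and 0.344). In such fits the adjusted p of STX8 and VEGFA reached 0.103 and 0.185.

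Lowered peaks were fewer, and none was called in all 8 fits that left out 1 library. The CEP63 peak (chr3:134464022-134464522, intergenic) held 13.9, 10.2, 11.9 and 9.41 per Mb without and 7.15, 4.87, 4.54 and 4.46 per Mb with IL-17A. It had the smallest adjusted p of the lowered peaks (-1.05 ± 0.20, adjusted p = 0.0034). The ALPP peak (chr2:232385634-232386134, an exon of the pseudogene ECEL1P2) held 9.13, 9.35, 6.82 and 8.28 per Mb without and 4.18, 4.19, 3.42 and 2.43 per Mb with IL-17A (-1.15 ± 0.22, adjusted p = 0.00538). CEP63 and ALPP were called in 7 of those 8 fits.

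The largest lowered change was given to KCNAB2 and lies in an intron of NPHP4 (chr1:5938315-5938815). It held 2.92, 3.03, 3.85 and 2.07 per Mb without and 0.189, 0.346, 0.592 and 1.34 per Mb with IL-17A (-1.71 ± 0.34, adjusted p = 0.00675). In the IL-17A libraries the peaks at PELO (exon of ITGA1) and CNIH3 (intron) were at or under 3 reads in every library. Their unstimulated means were 3.49-fold and 3.26-fold the mean level of 3 reads in the IL-17A libraries. These ratios carry no error and set no lower limit. The adjusted p-values of PELO and CNIH3 were 0.0262 and 0.0471, and of the 8 fits that left out a library PELO was called in 1 and CNIH3 in none. PELO also lost the call with a pseudocount of 2 (adjusted p = 0.053). MYH10, which encodes a nonmuscle myosin heavy chain, had a lowered intronic peak (chr17:8611730-8612230) of 4.49 ± 1.11 without and 1.5 ± 0.964 per Mb with IL-17A (-1.41 ± 0.29, adjusted p = 0.0101). The MYH10 peak lost the call without IL-17A replicate 1 or 2 (adjusted p = 0.0982 and 0.265). It was also lost without unstimulated replicate 1, 2 or 3 (adjusted p = 0.0566, 0.0573 and 0.0937).

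CRIM1, a gene for a transmembrane protein that binds bone morphogenetic proteins, was the only gene with more than 1 lowered peak. Both lie in an intron of the gene. One held 12.1, 13.9, 11.9 and 10.1 per Mb without and 8.02, 4.93, 6.39 and 6.9 per Mb with IL-17A (-0.83 ± 0.18, adjusted p = 0.0152). The other went from 7.3 ± 1.42 to 3.67 ± 2.03 per Mb (adjusted p = 0.018), and there IL-17A replicate 1 (6.57 per Mb) lay within the unstimulated range of 5.59 to 8.48 per Mb. Both lost the call with GC content corrected. Other lowered peaks with large changes were given to TRIB1 (-1.43), ZNF706 (-1.28), LOC101928453 (-1.16), USP40 (-1.08), TMC1 (-1.07) and LOC101929089 (-1.04), with adjusted p-values from 0.0157 to 0.0494. Of these, TRIB1, ZNF706, TMC1 and LOC101929089, and CNIH3 above, lost the call with GC content corrected.

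Among start sites of pathway genes, that of CEBPD was the only 1 called in the lists below. The list counts can be set beside all 29105 tested promoter-class peaks. Of those, 8.57% had an unadjusted p under 0.05 by limma, 1215 higher and 1279 lower. Start-site peaks of the lists also fall in other classes, so this background is not exact. In the list of 20 receptor and signalling genes 0 start-site peaks were called by limma (2 higher and 0 lower at an unadjusted p under 0.05), with a median change of -0.01. IL17RA held 18.3, 20.7, 25.0 and 20.4 per Mb without and 19.4, 20.0, 19.4 and 20.3 per Mb with IL-17A. IL17RC held 17.6, 20.0, 13.2 and 18.8 per Mb without and 19.2, 16.5, 20.7 and 18.3 per Mb with IL-17A. Both receptor chains thus had open start sites, and their libraries overlapped (changes -0.08 ± 0.13 and 0.11 ± 0.13, adjusted p = 0.962 and 0.945). Of the 10 peaks given to IL17RA 0 were called by limma and 1 lay above 0, with a median change of -0.36, and 2 were lower and 0 higher at an unadjusted p under 0.05. The smallest p-values of this list were those of TAB3, TRAF2 and CHUK, with changes of 0.45, 0.26 and -0.29 (adjusted p = 0.435, 0.752 and 0.838).

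Of 15 genes for NF-κB subunits and their feedback regulators 0 were called by limma at the start site (3 higher and 0 lower at an unadjusted p under 0.05), with a median change of 0.13 and 12 of 15 above 0. BCL3, an atypical inhibitor of NF-κB, held 7.26, 7.61, 5.96 and 5.51 per Mb without and 15.7, 9.52, 9.95 and 9.12 per Mb with IL-17A, with no overlap (0.69 ± 0.20, adjusted p = 0.261). NFKB1 and TNIP2 had changes of 0.69 ± 0.22 and 0.58 ± 0.25 (adjusted p = 0.401 and 0.688). NFKBIZ, which encodes IκBζ, a mediator of IL-17 responses, had an open start site at 24.6 ± 2.45 per Mb without and 25.4 ± 4.11 per Mb with IL-17A (0.04 ± 0.13, adjusted p = 0.986). ZC3H12A, which encodes the RNase Regnase-1 that limits IL-17 responses, had 5.47 ± 1.71 and 5.83 ± 0.323 per Mb (0.13 ± 0.23, adjusted p = 0.97). Of 59 peaks given to NFKBIZ and 4 given to ZC3H12A none was called by limma, with 2 and 0 higher at an unadjusted p under 0.05.

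In the list of C/EBP and AP-1 factors 12 of 13 genes had a start-site peak, and CEBPD was the 1 called. CEBPB, its relative in IL-17 signalling, held 11.4, 11.7, 19.0 and 13.1 per Mb without and 16.3, 19.1, 15.7 and 17.2 per Mb with IL-17A, which overlap (0.32 ± 0.14, adjusted p = 0.702). CEBPA and FOSL2 had changes of 0.74 ± 0.22 and 0.26 ± 0.09 (adjusted p = 0.291 and 0.533). FOSB and FOS had changes of -0.57 and -0.31 (adjusted p = 0.567 and 0.731).

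Among 15 chemokines and cytokines that IL-17A is known to induce 0 start sites were called by limma (1 higher and 0 lower at an unadjusted p under 0.05), with a median change of 0.25 and 13 of 15 above 0. CXCL1 was described above. The IL6 start site held 10.4 ± 0.835 per Mb without and 12.8 ± 1.1 per Mb with IL-17A, with no overlap (0.28 ± 0.16, adjusted p = 0.822). CXCL2 and CXCL6 had changes of 0.25 ± 0.14 and 0.41 ± 0.24 (adjusted p = 0.824 each), CXCL5 0.17 ± 0.23 (adjusted p = 0.958), CXCL8 0.19 ± 0.30 (adjusted p = 0.962) and CSF3, the gene of granulocyte colony-stimulating factor, 0.47 ± 0.32 (adjusted p = 0.865). The summed level of these 15 start-site peaks lay between 117 and 129 per Mb in the IL-17A libraries and between 104 and 112 per Mb in the unstimulated libraries. Such a separation was not found in this list alone, since the sum over the effector genes below lay between 76.7 and 84.1 per Mb with IL-17A and between 72.3 and 75.7 per Mb without, at a median change below 0.

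Of 20 effector genes 17 had a start-site peak, and S100A7, DEFB4A and MMP13 had none. None of the 17 was called by limma (2 higher and 1 lower at an unadjusted p under 0.05), and their median change was -0.12. SOD2, the mitochondrial superoxide dismutase, came nearest, at 14.7, 10.1, 11.4 and 12.5 per Mb without and 23.1, 16.5, 17.1 and 19.5 per Mb with IL-17A (0.63 ± 0.15, adjusted p = 0.0966). C3 and ICAM1 had changes of 0.67 ± 0.28 and -0.70 ± 0.26 (adjusted p = 0.649 and 0.592). The collagenase gene MMP1 and the stromelysin gene MMP3 had 0.03 ± 0.21 and 0.19 ± 0.23 (adjusted p = 0.994 and 0.945), and 0 of 8 and 0 of 11 peaks given to them were called. One distal peak given to PTGS2, the inducible cyclooxygenase, was called (chr1:186670181-186670681, 9992 bases from its start site), at 6.02, 11.5, 8.62 and 10.6 per Mb without and 20.1, 25.8, 14.8 and 14.4 per Mb with IL-17A (0.99 ± 0.22, adjusted p = 0.0298). PTGS2 was chosen for mention after its values were seen, and its adjusted p reached 0.163 under the alternatives with all libraries kept.

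Start sites in 4 further lists gave 0 calls by limma each. Of 12 contractile genes, with a median change of -0.12, none was higher and TPM1, CNN1, TPM2 and ACTA2 were lower at an unadjusted p under 0.05 (changes -0.36, -0.47, -0.26 and -0.32, adjusted p = 0.507, 0.579, 0.704 and 0.712). Of 15 matrix genes, with a median of 0.04, 2 were higher at an unadjusted p under 0.05, COL5A2 and COL6A2, at 0.42 and 0.37 (adjusted p = 0.594 and 0.744). Of 10 interferon genes, with a median of 0.06, 1 was lower at an unadjusted p under 0.05, IFIT3, at -0.34 (adjusted p = 0.764). The genes by which the study describes inflammatory fibroblasts (14, among them CXCL5, MMP1 and MMP3) had a median of 0.01 and 0 genes at an unadjusted p under 0.05, with GLI3 and COL7A1 at -0.28 and 0.25 (adjusted p = 0.817 and 0.895). Fibroblast markers had 0 calls of 10 by limma and a median of 0.10, and 1 was higher at an unadjusted p under 0.05, TWIST2, at 0.37 (adjusted p = 0.638).

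**Figure D3:**
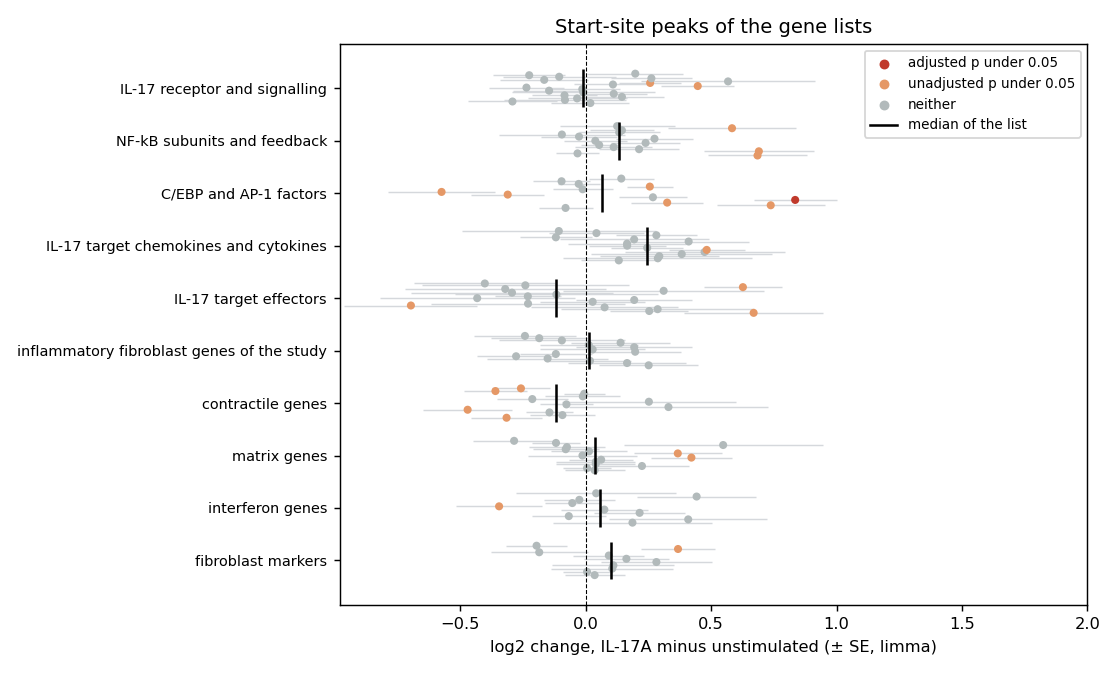
Change of the start-site peak of each gene (points, log2, IL-17A minus unstimulated, with the limma SE as a grey line) in 10 gene lists, with the median of each list as a black bar. One point, CEBPD, is past an adjusted p of 0.05, and the median of the IL-17 target chemokines and cytokines is 0.25.

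Over all peaks given to list genes, and not start sites alone, 3 of 315 peaks of the C/EBP and AP-1 list were called (2 at CEBPD, and a distal JUN peak), 3 of 351 of the chemokines and cytokines (all at CXCL1) and 1 of 340 of the effectors. These shares were 0.952%, 0.855% and 0.294%, against 0.0398% of all tested peaks and 0.217% (1 of 460) of peaks given to the endothelial markers, so that a share resting on 1 peak says little about the effectors. Calls were more frequent among promoter-class peaks (0.0859%) and among the 81435 most accessible tested peaks (148 called). The lists were not matched for class or coverage, and the 3 CXCL1 calls lie within 2.94 kb, so they may not be independent. At an unadjusted p under 0.05, chemokine and cytokine peaks were higher in 33 and lower in 6 cases, while all tested peaks were higher in 12259 and lower in 13988 cases. Peaks given to receptor and signalling genes (544) and to NF-κB genes (462) held 0 calls by limma, with 21 higher and 23 lower, and 23 higher and 13 lower, at an unadjusted p under 0.05.

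Sequence and position of the raised peaks are given here as a description, since a threshold on p favours peaks with high coverage. Where libraries differ in GC content, the calling can also favour GC-rich or GC-poor peaks. Mean GC content weighted by coverage was 51.66 to 52.23% in the IL-17A libraries and 51.71 to 51.85% in the unstimulated ones. With GC content corrected 90 peaks were called, and the part of GC content in the features below was not tested. Of the 162 called peaks 148 lay among the 81435 most accessible tested peaks, with a mean of at least 2.8 per Mb, and 0 lay below a mean of 0.646 per Mb. Raised peaks had a median GC content of 51.0%, lowered peaks of 42.1% and all tested peaks of 45.0% (47.6% among those with a mean of at least 1 per Mb). Promoters made up 17.2% of raised peaks (23 of 134) and 12.8% of tested peaks with a mean of at least 1 per Mb, and 36.6% of raised peaks lay within 2 kb of a start site against 29.3% of those tested peaks. Of the 22 raised peaks called in every fit that left out 1 library, 13.6% were promoters and 27.3% lay within 2 kb of a start site.

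A match to the NF-κB consensus was found in 27.6% of raised peaks (37 of 134), 7.14% of lowered peaks (2 of 28) and 8.48% of all tested peaks (8.61% with a mean of at least 1 per Mb). A C/EBP match was found in 27.6% of raised and 25.7% of all tested peaks. Both matches together were found in 8.96% of raised and 1.73% of all tested peaks. In the 22 raised peaks called in all 8 fits that left out a library, NF-κB matches were in 50.0%, C/EBP matches in 59.1% and both in 31.8%, among them those printed above at SCARB1, FEM1C, FANK1-AS1, TTLL4, NFE2L1 and LINC00528. The AP-1 site TGANTCA was in 20.1% of raised and 25.7% of all tested peaks (29.4% with a mean of at least 1 per Mb) and in 31.8% of those 22. The GC box GGGCGG was in 38.1% of raised and 16.0% of all tested peaks (24.3% with a mean of at least 1 per Mb) but in 13.6% of those 22. A match describes letters in the peak and shows no binding.

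The level of all 34546 tested peaks with an NF-κB match does not depend on which peaks were called. Their mean log2 level minus that of all tested peaks was 0.0614 ± 0.0046 with IL-17A and 0.0425 ± 0.00355 without (mean ± SD, n = 4), higher in 4 of 4 IL-17A libraries than in any unstimulated library. The difference of 0.0188 had an exact permutation p of 0.0286, two-sided, the smallest that 4 against 4 libraries can give, and an adjusted p of 0.129 over the 9 motifs examined. After GC correction it was 0.014 (exact permutation p = 0.0286, adjusted 0.0643). Peaks with an AP-1 match also did not overlap between groups (0.165 ± 0.00372 against 0.156 ± 0.00232, exact permutation p = 0.0286, adjusted 0.129). For C/EBP matches the levels overlapped (difference 0.000993, exact permutation p = 0.771), and after GC correction they did not (0.00551, exact permutation p = 0.0286, adjusted 0.0643). Peaks with a match to ISRE, the interferon response element, were likewise apart after GC correction and lower with IL-17A (-0.00858, exact permutation p = 0.0286, adjusted 0.0643), and none of the 9 motifs passed the adjusted threshold on either scale. On the same scale the mean for NF-κB was 0.123 ± 0.00229 with IL-1β and 0.209 ± 0.00508 with TNF.

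**Figure D4:**
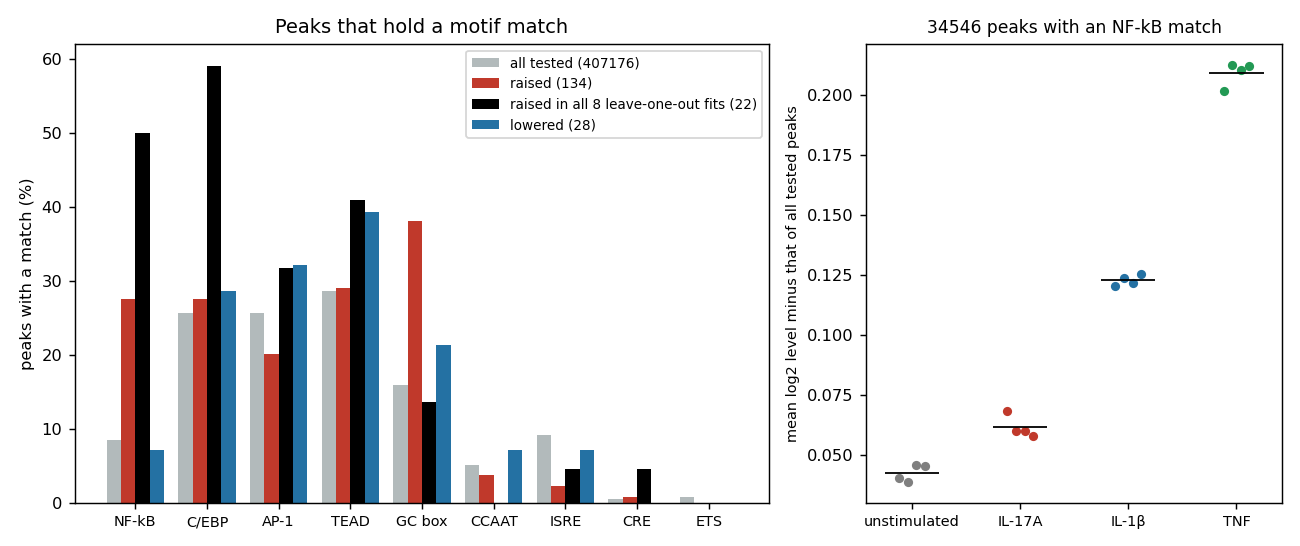
Left, share of peaks (%) that hold at least 1 match to each motif among all tested, raised, raised in all 8 leave-one-out fits, and lowered peaks. Right, mean log2 level of the 34546 peaks with an NF-κB match minus that of all tested peaks, 1 point per library with the group mean as a bar, where the 4 IL-17A libraries (0.0577 to 0.0681) lie above the unstimulated libraries (0.0386 to 0.0457) and below the IL-1β and TNF libraries.

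The response was then set beside those to IL-1β and TNF. In direct contrasts of the cytokine libraries, 9311 peaks differed between IL-17A and IL-1β (2.29% of tested peaks, 5175 higher and 4136 lower with IL-17A) and 15932 between IL-17A and TNF (3.91%, 6242 higher and 9690 lower). These differences are taken without the unstimulated libraries, which still entered the scaling and the pooled spread. In fits of only the groups compared the counts were 10674 and 18467. By the labels IL-1β was given at a much lower dose than IL-17A and TNF, and the paper is not uniform on that dose. Of the 134 peaks raised by IL-17A, 19 were higher and 17 lower than with IL-1β, and 27 were higher and 30 lower than with TNF. These peaks were chosen for high values in the IL-17A libraries, which tilts such counts towards IL-17A. In 70 of them neither contrast was called.

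Peaks at which IL-17A stood above both numbered 13 of 134. For this count, the 70 above and the 16 below both given next, the share over all tested peaks was not counted. They therefore have no background to be read against. The differences below carry the same tilt, since these peaks were chosen by the IL-17A libraries, and are no independent test. The first EGR1 peak held 51.0 ± 11.9 per Mb with IL-17A, 31.4 ± 3.83 with IL-1β and 29.4 ± 0.905 with TNF, close to the unstimulated 32.3 ± 1.89. Its differences were 0.67 ± 0.10 from IL-1β and 0.75 ± 0.10 from TNF (log2, adjusted p = 3.6e-07 and 2.38e-09). NEAT1 was higher by 0.79 ± 0.16 and 0.98 ± 0.16 (adjusted p = 0.00036 and 1.3e-06), HOOK2 by 0.69 ± 0.17 and 0.74 ± 0.17 (adjusted p = 0.0072 and 0.00135), and the SH3PXD2A-AS1 peak at chr10:103685999-103686499 by 0.68 ± 0.14 and 1.51 ± 0.14 (adjusted p = 0.000597 and 2.65e-18). A GALK1 peak, the other EGR1 peak, PIK3R1, ZFP36L1, MALAT1, DESI2, MIR4304, FBXL18 and CDKN1A made up the rest.

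At 16 raised peaks IL-17A stood below both. TTLL4 reached 5.76 ± 1.36 per Mb with IL-17A, 15.8 ± 1.67 with IL-1β and 20.9 ± 1.32 with TNF, differences of -1.40 ± 0.27 and -1.80 ± 0.27 (adjusted p = 9.7e-05 and 5.48e-08). The STX8 peak with 4 NF-κB matches reached 3.42 ± 0.889, 9.86 ± 1.44 and 19.1 ± 1.99 per Mb (adjusted p of the differences 0.0014 and 1.1e-09). The intronic and exonic CXCL1 peaks were also among them, at 9.04 ± 2.09 and 10.8 ± 1.13 per Mb with IL-17A, 23.6 ± 2.18 and 19.1 ± 3.21 with IL-1β, and 27.7 ± 2.28 and 21.3 ± 4.16 with TNF.

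At the distal CXCL1 peak, by contrast, the 3 cytokines gave 21.3 ± 4.42, 21.4 ± 1.07 and 21.1 ± 1.87 per Mb, and the differences of IL-17A were -0.03 ± 0.18 from IL-1β and -0.00 ± 0.18 from TNF (adjusted p = 0.982 and 0.998). FEM1C had 13.9 ± 0.621, 14.8 ± 1.24 and 13.8 ± 0.822 per Mb (adjusted p = 0.948 and 0.99). A p-value that misses the threshold does not show that levels were equal. SBF2 was higher with IL-17A than with TNF by 1.15 ± 0.28 (adjusted p = 0.00341) and not called against IL-1β (-0.67 ± 0.28, adjusted p = 0.28). The NAMPT peak at chr7:106276509-106277009 was likewise higher than with TNF (2.04 ± 0.39, adjusted p = 4.02e-05) and not called against IL-1β (0.84 ± 0.39, adjusted p = 0.363).

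**Figure D5:**
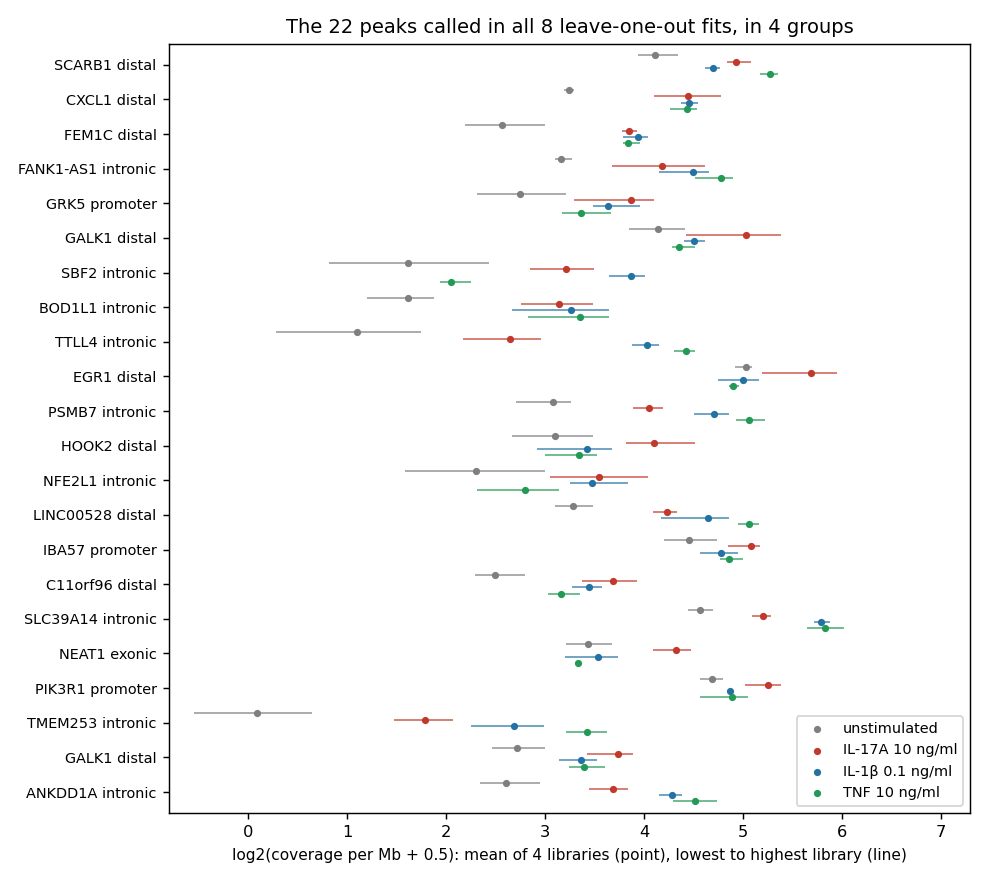
Level of the 22 peaks called in all 8 leave-one-out fits, as log2(coverage per Mb + 0.5), in unstimulated, IL-17A, IL-1β and TNF libraries; points are means of 4 libraries and lines run from the lowest to the highest library. At EGR1, HOOK2 and NEAT1 the IL-17A points lie to the right of both other cytokines, at TTLL4, PSMB7 and SLC39A14 to the left of both, and at CXCL1 and FEM1C the 3 cytokines lie together.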

How the data were processed

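Bulk ATAC-seq had been done on Ccd18-Co cells, and the submitters' processing notes name hg38 and MACS2. Deposited values are unscaled signal, that is, summed read coverage in each of 407383 peaks of fixed width (500 bases), with a gene and class in each peak's name. Per the methods of the study, reads went through the ENCODE ATAC-seq pipeline, and consensus peaks were assembled from filtered MACS2 peaks, with csaw counting outside blacklisted regions. The peak total given there is for other libraries, so whether the same steps chose these peaks is not stated. Columns were matched to samples by library number. Coverage counts bases of whole reads, not cut sites, and has no molecular identifiers. Floors (3 reads of 75 bases) cover counting error only. Standard errors and p-values of the peak tests rest on spread between libraries.

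Coverage was divided by the library total and by trimmed-mean composition factors (30% of log ratios and 5% of means trimmed), 0.5 was added and log2 taken, which understates changes of low peaks. Peaks with a log2 mean at or below -3 (207) were left out. limma 3.58.1 in R 4.3.3 fitted all 44 libraries with group as the only term and a mean-variance trend. Each peak's variance had 33 residual degrees of freedom and was drawn towards the trend with a prior weight of 257. The SE of a peak therefore reflects mostly the spread of peaks of similar coverage. Adjusted p-values are Benjamini-Hochberg over all 407176 tested peaks, two-sided. The steps were tested on simulated data. Single values were compared by exact permutation tests (Python 3.11.15). The count model of the study was not used, since coverage is not counts.

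Positions are from GENCODE v44 and sequences from hg38, with deposited starts read as 0-based. Peak positions are printed as the authors deposited them and printed sequences are counted from 1. Named peaks were the 12 raised and 12 lowered with the largest change (mean at least 1 per Mb, groups not overlapping), up to 20 called in every fit that left out a library, genes with at least 2 called peaks, the 3 start-site peaks (within 1 kb) with the smallest p in each gene list, and 14 genes of the IL-17 pathway. Members and lists were chosen with earlier results of these data known. Alternatives covered scaling, pseudocount, filter, weights, GC content, replicate block, threshold, merged regions and single libraries.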

Additional observations from a re-analysis of the deposited data

Results flagged for a closer look

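In each group of 4 libraries, a library was taken out for a closer look where its gap to the nearest of the others, as a share of the group's range, passed Dixon's critical value for 4 samples. Chance alone flags about 1 in 20 groups, and 11 of 236 groups checked were flagged, so the list is no longer than chance gives.

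In the IL-17A group, replicate 1 stood high at the BCL3 start site (15.7 per Mb, others 9.12 to 9.95) and at the lowered CEP63 peak (7.15 per Mb, others 4.46 to 4.87). Replicate 2 stood high at the SH3PXD2A-AS1 peak (31.6 per Mb, others 25.7 to 26.5) and replicate 3 at the TPM2 start site (30.2 per Mb, others 20.0 to 21.4). Replicate 4 stood low at an IGFBP4 peak (10.4 per Mb, others 13.0 to 13.5).

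In the unstimulated group, replicate 4 stood low at the second EGR1 peak (13.0 per Mb, others 16.8 to 17.6), high at the MMP1 start site (8.42 per Mb, others 6.2 to 6.45) and low in the level of peaks with an ETS match (1.16, others 1.19 to 1.2, log2 above all peaks). Replicate 3 stood high at another IGFBP4 peak (7.28 per Mb, others 6.12 to 6.3) and at the CDH5 start site (2.85 per Mb, others 1.2 to 1.44), and replicate 1 at the KRT18 start site (2.22 per Mb, others 1.69 to 1.78).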

How the results depend on the processing

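The number of peaks called for IL-17A against unstimulated (162) was 102 with a pseudocount of 0.1, 90 with GC correction, 100 with the replicate block and GC correction together, and 60 at an adjusted p under 0.01 and a log2 change of at least 0.5. Leaving out 1 library gave 58 to 240. The stricter threshold gave 5047 peaks against IL-1β (9311 otherwise) and 9509 against TNF (15932 otherwise), and leaving out 1 library gave 6614 to 8467 and 11884 to 13585. The other alternatives left each count within 1.5 times its value, among them composition factors from all peaks, an alternative chosen after seeing the data (124). Deviations of same-numbered libraries correlated at -0.000232 to 0.0255, and those of differently numbered libraries at -0.0142 to 0.00564. The highest value was that of the replicates numbered 4, so a small shared deviation of these is not excluded. All correlations were small, and the numbers were not taken as pairs. The replicate block gave 177 called peaks. The difference in total coverage (-4.8 Mb) ran from -42.6 to 31.9 Mb without 1 library.

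All 54 named called peaks kept their direction in every fit, 34 stayed called in every fit with all libraries kept, and 19 in every fit. Of the 162 called peaks 5 were called in none of the fits without 1 library. The smallest called change was larger among low peaks. It was 0.40 among peaks with a mean of at least 2.8 per Mb and 1.67 among those from 0.646 to 1.06 per Mb, with 0 calls below. The parts of depth and of the pseudocount in this pattern were not tested.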

Other observations

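Other raised peaks lay at genes of growth control and signalling, picked here after their values were seen. A distal JUN peak (5456 bases from the start site of this AP-1 subunit) held 3.69, 5.03, 3.98 and 3.39 per Mb without and 8.9, 14.4, 10.3 and 5.51 per Mb with IL-17A (1.12 ± 0.22 on the log2 scale, limma adjusted p = 0.00632). The JAK1 promoter, of a kinase of cytokine receptors, held 10.0, 10.6, 9.78 and 10.2 per Mb without and 21.3, 20.9, 20.6 and 12.7 per Mb with IL-17A (adjusted p = 0.0072). The promoter of ODC1, the first enzyme of polyamine synthesis, went from 7.77 ± 0.748 to 14.5 ± 2.17 per Mb (mean ± SD, n = 4), and a peak in an untranslated exon of CDKN1A, a cell cycle inhibitor, from 4.66 ± 0.349 to 10.4 ± 3.51 per Mb (adjusted p = 0.0137 and 0.0458). JAK1, ODC1 and CDKN1A were called in 5, 3 and 1 of the 8 fits that left out a library, and their adjusted p reached 0.428, 0.404 and 0.0814 under the alternatives with all libraries kept. The JAK1 and ODC1 promoters have a GC content of 75.4% and 80.8%.

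Of other single peaks, that given to ZFP36L1, which encodes an mRNA-binding protein, went from 22.2 ± 2.61 to 37.6 ± 6.96 per Mb and stood at 18.5 with IL-1β and 13.6 with TNF. The ZC3H12C peak, of a relative of Regnase-1, went from 1.77 ± 0.802 to 5.36 ± 0.515 per Mb and stood at 8.92 with IL-1β and 15.3 with TNF. ZFP36L1 and ZC3H12C had adjusted p-values of 0.00311 and 0.00429. A peak in a coding exon of IL17D, a relative of the IL-17A gene, was called (adjusted p = 0.0304), with overlapping libraries (0.941 to 5.2 without and 5.06 to 7.28 per Mb with IL-17A). One intronic PECAM1 peak was called (5.5 ± 1.25 to 11.2 ± 2.7 per Mb, adjusted p = 0.03), while the PECAM1 start site, of an endothelial marker, stood at 0.637 without and 0.495 per Mb with IL-17A. The adjusted p of the IL17D and PECAM1 peaks reached 0.348 and 0.227 under the alternatives with all libraries kept.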
